A study of Mus musculus with 44 samples.

Results

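Of the 54146 genes counted in cultured primary mouse astrocytes and microglia, 10 that are raised in reactive astrocytes were followed: Lcn2, Cp, Steap4, Aspg, Osmr, S1pr3, Cd44, Ggta1, Cd109 and Vim. They were chosen as a list of symbols, with no threshold on the values here. Each matched 1 mouse Ensembl identifier. The Apoe KO, APOE44, APOE33 and Apoe WT cells were untreated and were grown in media made for human cells. APOE44 and APOE33 are the usual names for mice with human APOE4 or APOE3 on both alleles. The labels state neither the strain nor the age of the animals, nor how the alleles were made. Each cell type had 4 KO, 6 APOE44, 6 APOE33 and 6 WT libraries, of both sexes, and KO replicate 1 was the only female KO library. All 12 WT libraries were tagged batch 2 and the other 32 were tagged batch 1. In comparisons with WT, genotype and batch cannot be told apart. Whether replicates came from separate animals or cultures is not in the labels, and p-values then measure only the spread between these libraries, which may be technical.

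Astrocytes respond to injury, infection and neurodegeneration by changing shape and gene expression, a state called reactive. Cytokines of the interleukin-6 family act through gp130 receptors and STAT3, and interleukin-1 and tumour necrosis factor act through NF-kB, to raise many of these genes. Reactive genes are commonly sorted into pan-reactive ones, ones raised by neuroinflammation and ones raised by ischaemic injury. In that scheme Lcn2, Cp, Steap4, Aspg, Osmr, S1pr3, Cd44 and Vim are pan-reactive, Ggta1 is neuroinflammatory and Cd109 is injury-associated.

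Their products do different work. Lcn2 encodes lipocalin-2, a secreted protein that binds bacterial iron carriers, Cp encodes the copper-carrying ferroxidase ceruloplasmin, and Steap4 encodes a membrane metalloreductase. Aspg encodes an asparaginase. Osmr is the receptor subunit for oncostatin M, S1pr3 is a receptor for sphingosine-1-phosphate, and Cd44 is a receptor for hyaluronan. Ggta1 encodes the enzyme that adds terminal alpha-galactose to glycans, Cd109 a surface protein that binds transforming growth factor beta, and Vim the intermediate filament vimentin.

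The promoters of the genes that were higher in KO astrocytes in 1 or more comparisons within batch 1 are shown where the results turn on them. RefSeq windows on GRCm38.p6 were available for 9 of the 10 genes. They were searched on both strands for TTCNNNGAA, a STAT-type motif, and an NF-kB-type motif, GGG and CC with any 5 bases between. The windows below are the 250 bases before each start, read 5′ to 3′ on the gene's strand, with motif matches in capitals. For Cp, which has more than 1 RefSeq start, the window before the second start is shown.
Lcn2, chr2:32387740-32387989 on the minus strand: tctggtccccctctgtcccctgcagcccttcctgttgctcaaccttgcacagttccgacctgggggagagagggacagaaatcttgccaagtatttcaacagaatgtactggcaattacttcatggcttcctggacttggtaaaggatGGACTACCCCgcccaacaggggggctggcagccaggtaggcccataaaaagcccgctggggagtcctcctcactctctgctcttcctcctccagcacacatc
Cp, chr3:19956999-19957248 on the plus strand: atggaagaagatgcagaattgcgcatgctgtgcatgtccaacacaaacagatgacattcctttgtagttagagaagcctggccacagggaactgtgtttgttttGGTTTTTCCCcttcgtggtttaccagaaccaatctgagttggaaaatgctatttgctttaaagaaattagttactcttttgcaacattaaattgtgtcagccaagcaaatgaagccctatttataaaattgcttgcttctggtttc
Aspg, chr12:112106433-112106682 on the plus strand: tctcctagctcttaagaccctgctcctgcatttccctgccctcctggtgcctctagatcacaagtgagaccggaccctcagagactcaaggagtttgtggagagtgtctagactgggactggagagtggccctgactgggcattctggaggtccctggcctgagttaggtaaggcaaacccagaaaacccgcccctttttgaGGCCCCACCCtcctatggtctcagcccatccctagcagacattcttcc
Ggta1, chr2:35461450-35461699 on the minus strand: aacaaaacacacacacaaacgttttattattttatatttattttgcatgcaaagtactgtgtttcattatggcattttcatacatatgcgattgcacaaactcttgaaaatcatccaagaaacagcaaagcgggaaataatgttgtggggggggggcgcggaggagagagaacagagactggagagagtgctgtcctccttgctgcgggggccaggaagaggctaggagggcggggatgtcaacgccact
Osmr, chr15:6874314-6874563 on the minus strand: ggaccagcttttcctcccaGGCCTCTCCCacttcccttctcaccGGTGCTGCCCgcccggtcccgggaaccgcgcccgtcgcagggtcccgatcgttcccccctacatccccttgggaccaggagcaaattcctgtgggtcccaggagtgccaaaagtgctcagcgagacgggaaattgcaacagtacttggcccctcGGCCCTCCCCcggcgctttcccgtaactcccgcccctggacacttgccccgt

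The NF-kB-type motif matched 102 bases before the start of Lcn2, 146 before the second start of Cp, 48 before that of Aspg and 231, 206 and 52 before that of Osmr. It had no match in the Ggta1 window or in the window of the first Cp start, which is not printed. It matched in 1 or more windows of 7 of the 9 genes, against 45.8% of 32851 promoter windows of the same length. TTCNNNGAA matched in 1 of the 9, Steap4, at 116 bases before its start, against 7.02% of all windows. A match describes letters only.

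Microglia libraries held 86313947 to 120505499 counts and astrocyte libraries 83239599 to 143150569. RIN, a score of RNA integrity, was 9.6 to 10 for microglia and 8.9 to 9.7 for astrocytes. Apoe averaged 13.3 ± 1.75 CPM, counts scaled to a common library total, in KO astrocytes (SD, n = 4) against 7185 ± 632 CPM in WT astrocytes (SD, n = 6). In microglia it averaged 12.4 ± 7.34 CPM in KO libraries (SD, n = 4) against 43206 ± 4159 CPM in WT libraries (SD, n = 6). The genotype tag of APOE33 astrocyte replicate 1 reads WT. The title, source name and batch of that library put it in APOE33, and it was analysed there. Apoe ran from 23.4 to 35.8 CPM over the 6 APOE33 astrocyte libraries, this one included, against 6104 to 7759 CPM in WT astrocytes. Astrocyte and microglia marker levels separated the cell types. The summed CPM of 18 microglia and macrophage markers ran from 159 to 674 over the astrocyte libraries, and that of 18 astrocyte markers from 654 to 1358 over the microglia libraries. The astrocyte markers Gfap, Aqp4 and Fgfr3 were lower in batch 1 microglia, at -8.51, -7.58 and -8.66 on the log2 scale.

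Between the cell types, 8 of the 10 genes were lower in batch 1 microglia than in astrocytes, 1 was higher and Ggta1 did not pass. There 90.9% of 21647 genes tested passed, 40.3% higher and 50.6% lower (edgeR, adjusted p under 0.05). The members' median log2 difference was -5.21, beside -0.25 for all genes tested. Among WT libraries 9 were lower and 1 higher, with a median of -5.20, beside -0.13, and 89.5% of 19331 genes passed, 41.6% higher and 47.9% lower. Osmr had the largest differences of the 10, at -8.02 (SE 0.20, adjusted p = 1.25e-23) in batch 1 and -8.19 (SE 0.17, adjusted p = 1.46e-12) in WT. It stood at 0.172 to 0.555 CPM in the 6 WT microglia libraries, against 117 to 152 CPM in the 6 WT astrocyte libraries, so the cell types did not overlap.

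S1pr3 (-7.18, SE 0.29), Lcn2 (-6.56, SE 0.42), Cd109 (-6.39, SE 0.22), Aspg (-5.74, SE 0.37), Steap4 (-4.68, SE 0.49), Cp (-4.66, SE 0.21) and Vim (-4.42, SE 0.10) followed in batch 1. Aspg is a low-count gene here: its counts were 0 to 9 in every microglia library, so that its value rests on few reads. It did not pass the low count filter in microglia alone and entered these fits through the astrocyte libraries. A gene kept in this way can hardly be called other than lower in microglia. Its lower calls, included in the counts and medians above, are therefore not support for a difference. Cd44, which is also found on leukocytes, went the other way. It was higher in microglia by 1.19 in batch 1 (SE 0.05, adjusted p = 7.29e-20) and by 1.82 in WT (SE 0.08, adjusted p = 1.73e-10). Cd44 stood at 188 to 275 CPM in WT microglia against 84.3 to 101 CPM in WT astrocytes. Ggta1 was the member closest to equal. Its log2 difference was 0.01 in batch 1 (SE 0.05, adjusted p = 0.894) and -0.21 in WT (SE 0.05, adjusted p = 0.0019), and the batch 1 value turned to -0.07 with DESeq2 size factors.

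**Figure D1:**
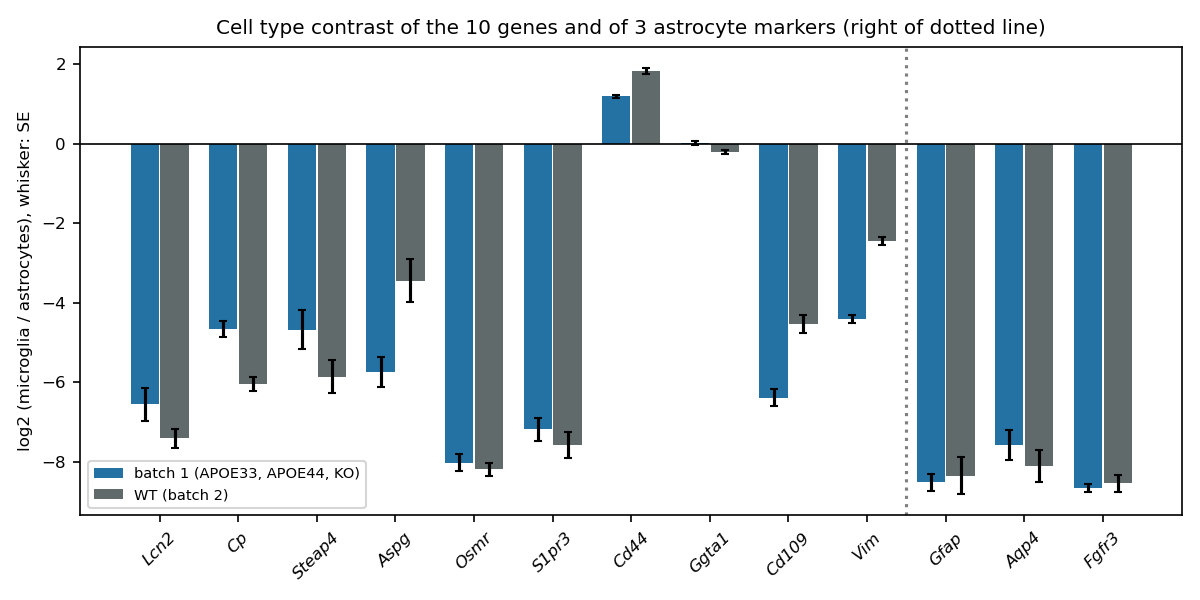
Log2 ratio of microglia to astrocytes from edgeR (bars, with SE as whiskers) for the 10 genes in batch 1 and in WT libraries, with 3 astrocyte markers to the right of the dotted line. Cd44 lies above 0 and 8 genes lie far below it, with Osmr at about the depth of Gfap.

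Compared per kilobase of exon, the WT astrocyte levels differed widely. Vim averaged 1343 CPM per kilobase, Lcn2 93.8, Cp 48.0, Cd109 44.2, Ggta1 39.8, S1pr3 33.1, Cd44 14.0, Osmr 11.2, Steap4 1.06 and Aspg 0.186 CPM per kilobase (n = 6). Cp, at 43.5 to 50.9, overlapped Cd109, at 41.7 to 45.6, and Cd109 overlapped Ggta1, at 36.7 to 43.9 CPM per kilobase. Ggta1 overlapped S1pr3, at 27.8 to 37.8, and Cd44, at 12.4 to 14.9, overlapped Osmr, at 9.63 to 12.6. The ranges of Vim, Lcn2, Steap4 and Aspg did not overlap those of their neighbours.

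The KO astrocytes differed from APOE33 astrocytes in 3 of the 10 genes, Lcn2, Cp and Aspg, which were all higher, and in none downward. Of all 20481 genes tested, 8.37% were higher, 8.83% were lower and 17.2% passed in either direction (edgeR, adjusted p under 0.05). The median of the 10 genes was 0.19 on the log2 scale, beside 0.003 for all genes. Against APOE44 astrocytes, which share the KO libraries with that comparison, 5 of the 10 were higher and none lower: Lcn2, Cp, Aspg, Osmr and Ggta1. Of all genes, 11% were higher, 11.8% were lower and 22.7% passed. Here the median of the 10 genes was 0.25, beside 0.01.

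Lcn2 (ENSMUSG00000026822.14, GRCm38 chromosome 2, 32384633 to 32388252 in GENCODE M21, as for the genes that follow) read 622, 873, 1116 and 593 CPM in the 4 KO astrocyte libraries. It ran from 110 to 326 CPM (median 163) in APOE44, from 111 to 402 CPM (median 204) in APOE33 and from 203 to 273 CPM (median 251) in WT libraries. Every KO library lay above every other library. The log2 fold change was 1.55 against APOE33 (SE 0.43, edgeR adjusted p = 0.0262) and 2.02 against APOE44 (SE 0.41, adjusted p = 0.00385). The call against APOE33 was lost without KO replicate 1 (1.57, adjusted p = 0.0953), KO replicate 3 (1.41, adjusted p = 0.0613) or APOE33 replicate 3 (1.29, adjusted p = 0.0564). It was also lost with no low count filter (adjusted p = 0.0583) and with the replicate number as a block (1.63, adjusted p = 0.0922). In male libraries alone, an alternative chosen after the data were seen, it was 1.70 (adjusted p = 0.179), and 1.95 against APOE44 (adjusted p = 0.0761). That fit held only 3 KO, 2 APOE33 and 3 APOE44 libraries, and dependence on sex was not tested.

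Cp (ENSMUSG00000003617.16, chromosome 3, 19957054 to 20009145) read 744.5, 610.0, 602 and 787 CPM in KO astrocytes. It ran up to 326 CPM (median 287) in APOE44, from 226 to 463 CPM in APOE33 and from 416 to 487 CPM in WT astrocytes. Again no library of another genotype reached the KO range. Cp rose by 1.2 against APOE33 (SE 0.21, adjusted p = 0.00237) and by 1.35 against APOE44 (SE 0.20, adjusted p = 0.000467).

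Aspg (ENSMUSG00000037686.6, chromosome 12, 112106679 to 112127559), at the lowest level of the 10, read 2.29, 1.49, 1.86 and 1.17 CPM in KO astrocytes, from counts of 126 to 256. It ran from 0.300 to 0.537 CPM in APOE44, from 0.416 to 0.681 CPM in APOE33 and from 0.433 to 1.01 CPM in WT astrocytes. The KO libraries stood above all others. It rose by 1.74 against APOE33 (SE 0.23, adjusted p = 0.000245) and by 1.93 against APOE44 (SE 0.22, adjusted p = 4.23e-05).

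Ggta1 (ENSMUSG00000035778.17, chromosome 2, 35400179 to 35463231) read 175, 208, 192 and 209 CPM in KO astrocytes, against 119 to 158 CPM in APOE44 and 127 to 174 CPM in APOE33 astrocytes. The KO range lay just above both, and it overlapped the WT range of 173 to 207 CPM. Ggta1 rose by 0.42 against APOE44 (SE 0.10, adjusted p = 0.00912) and stood at 0.32 against APOE33 (SE 0.11, adjusted p = 0.0553), which misses the threshold. The value against APOE33 passed without the sex covariate (adjusted p = 0.0218) and by DESeq2 (adjusted p = 0.0314). It also passed without APOE33 replicate 4 or 5 (adjusted p = 0.0476 and 0.0239). The call against APOE44 was lost with the replicate number as a block (0.40, adjusted p = 0.0517).

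Osmr (ENSMUSG00000022146.12, chromosome 15, 6813577 to 6874969) read 147, 212, 219 and 150 CPM in KO astrocytes, against 93.1 to 138 CPM in APOE44, 112 to 156 CPM in APOE33 and 117 to 152 CPM in WT astrocytes. KO replicates 2 and 3 were high, and replicates 1 and 4 lay inside the APOE33 and WT ranges. Osmr rose by 0.63 against APOE44 (SE 0.14, adjusted p = 0.00475) and stood at 0.36 against APOE33 (SE 0.14, adjusted p = 0.0936). The APOE44 call was lost in male libraries (0.67, adjusted p = 0.0839), and the APOE33 value passed without KO replicate 4 (0.45, adjusted p = 0.0481), without the sex covariate (0.46, adjusted p = 0.0363) or by DESeq2 (0.36, adjusted p = 0.04998).

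S1pr3 (ENSMUSG00000067586.4, chromosome 13, 51408639 to 51422797) varied most within KO astrocytes, at 55.0, 156, 124 and 87.1 CPM. It ran from 109 to 156 CPM in APOE44, from 121 to 170 CPM in APOE33 and from 124 to 168 CPM in WT astrocytes. KO replicates 1 and 4 were below every other library and replicate 2 was inside the other ranges. Its log2 value was -0.59 against APOE33 (SE 0.23, adjusted p = 0.0909), with a DESeq2 adjusted p of 0.0171. Without KO replicate 2 it passed against APOE33 (-0.80, adjusted p = 0.0205) and against APOE44 (-0.66, adjusted p = 0.0305).

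Vim, Cd44, Cd109 and Steap4 passed neither KO comparison. Vim (ENSMUSG00000026728.9, chromosome 2, 13573927 to 13582826), the most abundant, read 6058, 6602, 6875 and 6680 CPM in KO astrocytes, against 5463 to 7867 CPM in APOE33 (-0.11, SE 0.11, adjusted p = 0.515). Cd44 (ENSMUSG00000005087.17, chromosome 2, 102811141 to 102901665) read 92.7 to 113 CPM in KO, against 79.6 to 105 CPM in APOE33 (0.04, SE 0.08, adjusted p = 0.794). Cd109 (ENSMUSG00000046186.8, chromosome 9, 78615546 to 78716253) read 245 to 299 CPM in KO, against 220 to 302 CPM in APOE33 (0.06, SE 0.09, adjusted p = 0.70). Steap4 (ENSMUSG00000012428.9, chromosome 5, 7960457 to 7982213) read 1.07 to 3.12 CPM in KO, against 1.87 to 4.10 CPM in APOE33 (-0.50, SE 0.29, adjusted p = 0.246). Each KO range overlapped the APOE33 range. Against APOE44, Vim, Cd44 and Steap4 stood at -0.05, 0.08 and -0.16. Cd109 stood at -0.20 there (SE 0.09, adjusted p = 0.116). In male libraries alone, the alternative chosen after the data were seen, Cd109 passed as lower against APOE44 (-0.25, adjusted p = 0.0484).

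**Figure D2:**
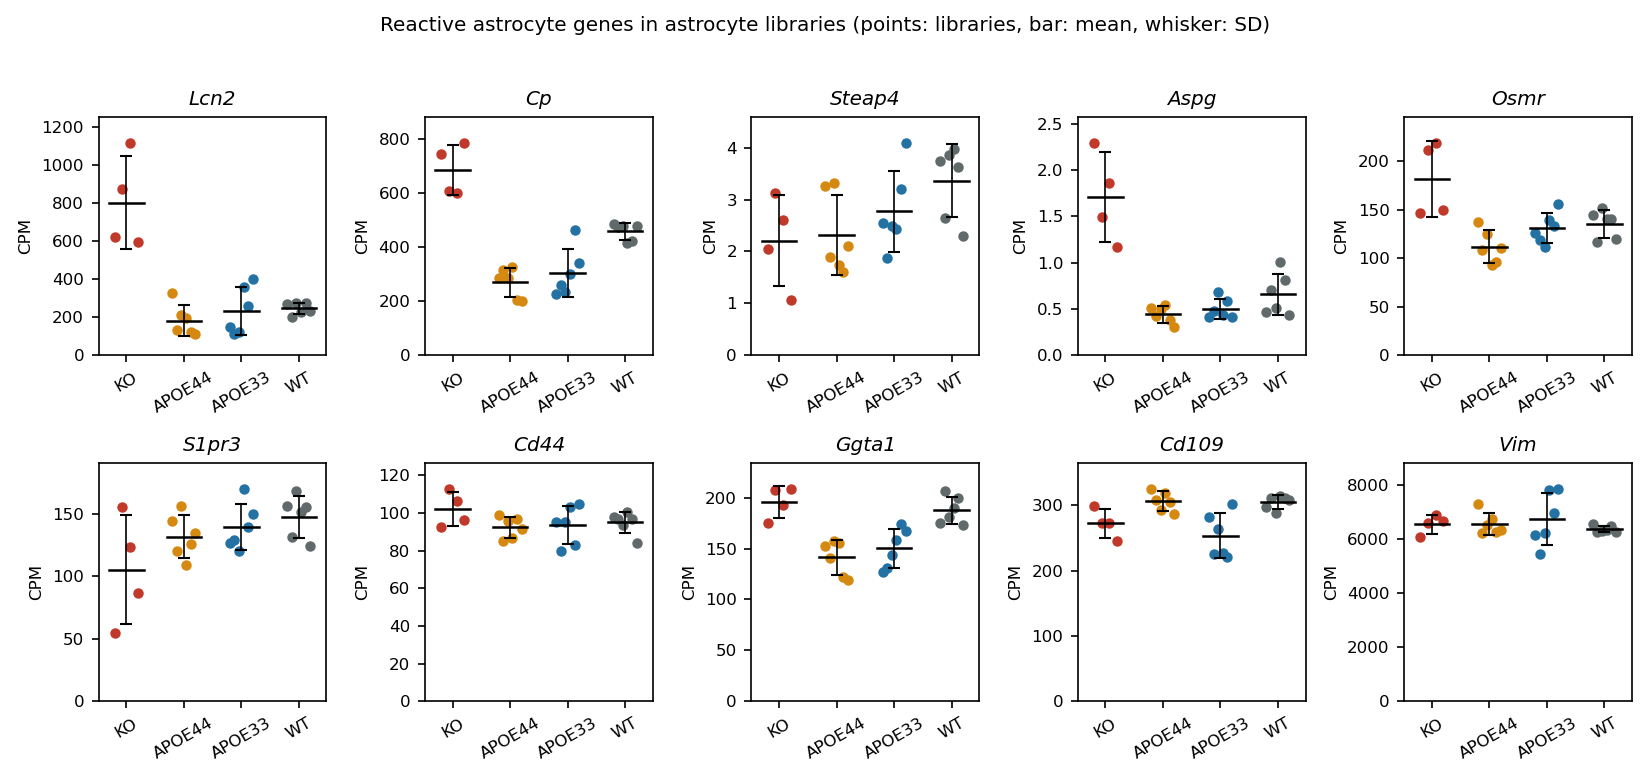
CPM of the 10 genes in each astrocyte library (points), with the group mean (bar) and SD (whisker), by genotype. The 4 KO libraries lie above all others in the Lcn2, Cp and Aspg panels, and the KO points of S1pr3 spread from 55.0 to 156 CPM.

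The ranges of KO and APOE33 astrocytes did not overlap for 4 of the 10 genes (Lcn2, Cp, Aspg and Ggta1), beside 13.7% of all genes. Those of KO and APOE44 did not overlap for 5, beside 20.6%. Beside these results, the summed level of 10 ependymal and choroid markers ran from 122 to 263 CPM in KO astrocytes, against 297 to 436 CPM in APOE44 and 273 to 410 CPM in APOE33, with no marker at 0 throughout a group. Of 8 tested, 2 fell against APOE33. The summed level of 12 mural and meningeal markers was 160 to 348 CPM in KO against 327 to 425 CPM in APOE33. Oligodendrocyte lineage markers summed to 227 to 235 CPM in KO against 292 to 397 CPM in APOE44 and 255 to 299 CPM in APOE33, with no overlap, and 5 of 15 tested fell in each KO comparison; Mobp and Opalin were at 0 in all KO libraries. Microglia and macrophage markers summed to 293 to 577 CPM in KO and 189 to 674 CPM in APOE33, which overlap; of 17 tested, 1 rose (Aif1, 1.08, adjusted p = 0.0399) and the median was 0.72 on the log2 scale. Border macrophage and monocyte markers had a median sum of 22.7 CPM (highest 31.1) in KO and 11.4 CPM (highest 14.5) in APOE33, with Plac8 at 0 in both groups, 1 of 5 tested higher and a median of 1.07. Astrocyte markers summed to 18980 to 23425 CPM in KO, 23066 to 25647 CPM in APOE44 and 19991 to 25461 CPM in APOE33, which overlap. Of 18 tested, 3 rose and 2 fell against APOE33, with a median of -0.11. Against APOE44, 3 rose and 6 fell, with a median of -0.16. The part of these marker lists in the astrocyte results was not tested, and in bulk RNA fewer cells of a type and less RNA per cell cannot be told apart.

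Between APOE44 and APOE33 astrocytes, edgeR called 0 of the 10 genes and DESeq2 called 0; edgeR called 0.703% of 20481 genes. An unadjusted p under 0.05 was found for 2 of the 10, beside 9.91% of all genes. Negative log2 values were found in 9 of the 10, and the median was -0.15, beside -0.001 for all genes. Cd109 was the exception, at 286 to 326 CPM in APOE44 against 220 to 302 CPM in APOE33, a log2 value of 0.26 (SE 0.08, adjusted p = 0.223). Osmr, at 93.1 to 138 CPM in APOE44 against 112 to 156 CPM in APOE33, stood at -0.26 (SE 0.12, adjusted p = 0.498). In each of the 10 genes the ranges overlapped, and they were apart for 1.51% of all genes.

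**Figure D3:**
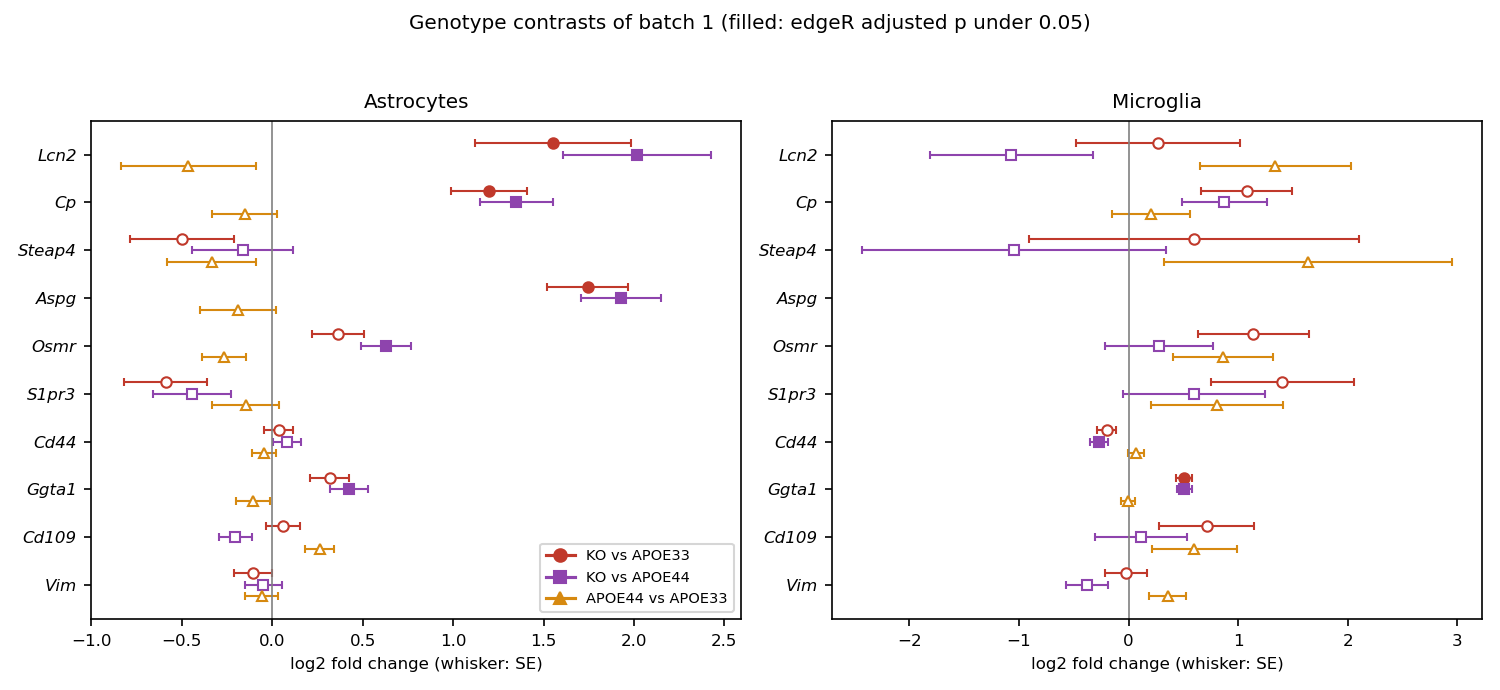
Log2 fold changes of the 10 genes (points, SE as whiskers) within batch 1 for KO against APOE33, KO against APOE44 and APOE44 against APOE33, in astrocytes and microglia; filled points passed at an edgeR adjusted p under 0.05. Lcn2, Cp and Aspg stand to the right in both KO contrasts of astrocytes. In microglia, where Aspg has no point, Ggta1 is filled in both KO contrasts and Cd44 in that against APOE44. No APOE44 against APOE33 point is filled.

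Against WT astrocytes, in all 22 libraries, KO astrocytes had 4 genes higher and none lower, beside 19.4% of 21287 genes higher and 18.9% lower: Lcn2 (1.64, SE 0.37, adjusted p = 0.00204), Cp (0.62, SE 0.18, adjusted p = 0.00962), Aspg (1.41, SE 0.24, adjusted p = 7.48e-05) and Osmr (0.43, SE 0.14, adjusted p = 0.0217). Osmr lost its call without WT replicate 2 or 6 or KO replicate 2 or 3 (adjusted p from 0.0563 to 0.0892), and with the replicate block (adjusted p = 0.0613). DESeq2 also called S1pr3 (-0.52, adjusted p = 0.0144) and Steap4 (-0.63, adjusted p = 0.0487) lower in KO than in WT astrocytes. APOE44 astrocytes had Cp (-0.73, SE 0.16, adjusted p = 0.00117) and Ggta1 (-0.37, SE 0.08, adjusted p = 0.00123) lower than WT and none higher, beside 21.1% of genes lower and 20.6% higher. APOE33 astrocytes had 3 lower and none higher, Cp (-0.57, SE 0.16, adjusted p = 0.00853), Ggta1 (-0.26, SE 0.08, adjusted p = 0.0168) and Cd109 (-0.22, SE 0.07, adjusted p = 0.018), beside 18.9% of genes lower and 20.1% higher. These 3 comparisons share the WT libraries. Cp averaged 686 ± 94.0 CPM in KO (SD, n = 4), 269.8 ± 54.9 in APOE44, 304 ± 88.5 in APOE33 and 459 ± 31.2 CPM in WT astrocytes (SD, n = 6 each). The KO range was highest, WT overlapped only APOE33, and APOE44 and APOE33 overlapped.

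In microglia, 9 of the 10 genes passed the low count filter; Aspg did not, with 0 counts in 2 of 4 KO, 4 of 6 APOE44, 4 of 6 APOE33 and 2 of 6 WT libraries. Only Ggta1 passed between KO and APOE33 microglia, where 22.7% of 17143 genes passed and 10.9% were higher. Ggta1 read 133, 141, 142 and 137 CPM in KO, against 94.4 to 108 CPM in APOE44, 88.8 to 113 CPM in APOE33 and 107 to 127 CPM in WT microglia. The KO range lay above those of all other genotypes. It rose by 0.50 against APOE33 (SE 0.07, adjusted p = 0.00017), by 0.51 against APOE44 (SE 0.07, adjusted p = 8.89e-05) and by 0.33 against WT (SE 0.07, adjusted p = 0.000733).

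Cd44, the hyaluronan receptor, was low in KO microglia. It read 124, 137, 137 and 139 CPM in KO, against 148 to 185 CPM in APOE44, 140 to 182 CPM in APOE33 and 188 to 275 CPM in WT microglia, and no other library reached down to the KO range. It fell by 0.27 against APOE44 (SE 0.08, adjusted p = 0.0266), where 26.9% of genes passed (13.6% higher, 13.4% lower) and 24.7% had ranges apart, and stood at -0.20 against APOE33 (SE 0.09, adjusted p = 0.115). The first call was lost without KO replicate 1, 2 or 3 (adjusted p from 0.0521 to 0.0857). Cp stood at 13.1 to 18.3 CPM in KO against 2.80 to 13.9 CPM in APOE33, a log2 value of 1.08 (SE 0.42, adjusted p = 0.0819), and DESeq2 called it (adjusted p = 0.0417). Without APOE33 replicate 6, Cd44 passed against APOE33 (-0.27, adjusted p = 0.0355). For 2 of the 9 genes, Ggta1 and Cd44, the KO and APOE33 ranges did not overlap, beside 18.8% of genes.

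None of the other 6 tested genes passed between KO and APOE33 microglia. Lcn2 read 2.90, 0.967, 0.789 and 3.02 CPM in KO, against 1.14 to 13.4 CPM in APOE44 and 0.695 to 4.63 CPM in APOE33. Its log2 value was 0.27 (SE 0.75, adjusted p = 0.839) against APOE33. S1pr3 read 1.55, 0.302, 0.299 and 1.45 CPM and Osmr 0.796, 0.121, 0.212 and 0.769 CPM in KO replicates 1 to 4. In the same libraries the astrocyte marker Gfap read 21.5, 9.37, 8.27 and 18.5 CPM, high in the same replicates 1 and 4. Its part in these values was not tested. Against APOE33, S1pr3 stood at 1.40 (SE 0.65, adjusted p = 0.143) and passed without APOE33 replicate 6 (2.23, adjusted p = 0.0169), and Osmr stood at 1.14 (SE 0.51, adjusted p = 0.123) and passed without KO replicate 2 (1.43, adjusted p = 0.0453).

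**Figure D4:**
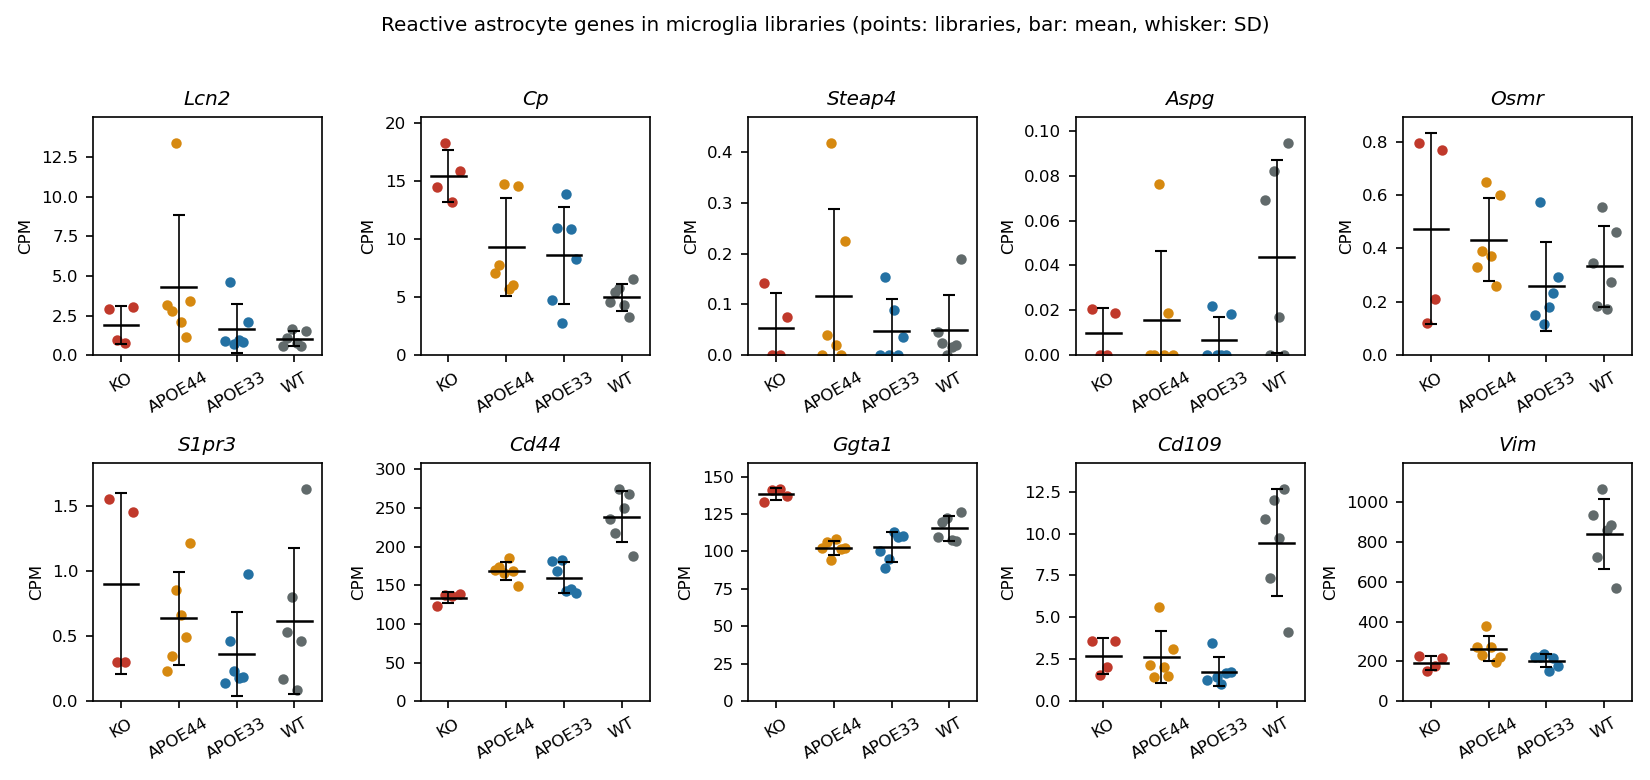
CPM of the 10 genes in each microglia library (points), with the group mean (bar) and SD (whisker), by genotype. Ggta1 is highest in the 4 KO libraries, at 133 to 142 CPM, and the WT points of Vim and Cd44 lie above those of the other genotypes. For Cd109 the WT points lie above those of KO and APOE33 and overlap those of APOE44.

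Between APOE44 and APOE33 microglia, edgeR called 0 of the 9 genes and DESeq2 called 0, and 0.84% of 17143 genes passed. None of the 9 had an unadjusted p under 0.05, beside 11.9% of all genes. Positive values were found in 8 of the 9, and the median was 0.60, beside -0.004 for all genes. Neuron markers were high in 3 of these libraries: they summed to 8.71 and 7.85 CPM in APOE44 replicates 3 and 6 and to 10.3 CPM in APOE33 replicate 2, and to at most 2.07 CPM in the other microglia libraries. Lcn2 was highest in its group in APOE44 replicate 3, at 13.4 CPM, and in APOE33 replicate 2, at 4.63 CPM. In the same 3 libraries the astrocyte markers Slc1a3, Slc1a2 and Aqp4 were also high: Slc1a3 read 17.0, 13.1 and 18.1 CPM, Slc1a2 5.85, 6.49 and 7.66 CPM and Aqp4 6.53, 6.91 and 8.38 CPM. In the other microglia libraries these 3 genes read at most 4.67, 1.88 and 3.90 CPM. Not all astrocyte markers stood out in this way. Gfap read 14.57, 13.89 and 15.02 CPM in the same 3 libraries, against 22.51 CPM in WT replicate 6. Fgfr3 read 0.7041, 0.7322 and 1.004 CPM, against 1.428 CPM in WT replicate 3. Both were highest of their group in APOE33 replicate 2. The summed astrocyte markers read 1098.6, 1109.9 and 1274.6 CPM, below the highest library of each group. The part of these markers in the values was not tested. Without the 3 libraries, an alternative chosen after seeing the data, the members' median for APOE44 against APOE33 was 0.30 over 8 tested genes. KO against APOE33 then called 3 members: Ggta1, Osmr (1.43, adjusted p = 0.0494) and Cd109 (1.00, adjusted p = 0.0201).

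KO microglia, set against WT microglia, had Cp (1.74, SE 0.36, adjusted p = 0.000693) and Ggta1 higher and Vim, Cd44 and Cd109 lower, beside 20.9% of 18079 genes higher and 21.5% lower. Vim averaged 192 ± 35.3 CPM in KO against 840.4 ± 174 CPM in WT microglia, with no overlap (-2.03, SE 0.20, adjusted p = 2.62e-07). Cd44 stood at -0.76 (SE 0.10, adjusted p = 2.33e-06) and Cd109 at -1.70 (SE 0.43, adjusted p = 0.00335). Vim, Cd44 and Cd109 were also lower in APOE44 (-1.67, -0.50 and -1.82) and in APOE33 (-2.05, -0.58 and -2.45) than in WT microglia. Of 10 mural and meningeal markers tested, 6 fell against WT in KO, 6 in APOE44 and 6 in APOE33 microglia, with medians of -3.47, -2.38 and -2.72. They summed to 1.42 to 1.85 CPM in KO, 1.43 to 5.21 CPM in APOE44, 0.946 to 6.43 CPM in APOE33 and 2.53 to 5.91 CPM in WT microglia. At 0 throughout their group were 6 of the 12 markers in KO, 2 in APOE44, 4 in APOE33 and 0 in WT, with Lum at 0 in the first 3 groups. Of 18 microglia and macrophage markers, 12 rose in KO, 15 in APOE44 and 15 in APOE33, and they summed to 25394 to 26334 CPM in KO, 25829 to 31335 CPM in APOE44, 26663 to 31730 CPM in APOE33 and 19586 to 22633 CPM in WT. The part of either list in these values was not tested. Ggta1 fell by 0.17 in APOE33 (adjusted p = 0.0352) and by 0.18 in APOE44 (adjusted p = 0.026), beside 22.6% and 23.1% of genes lower. The APOE33 call of Ggta1 was lost without WT replicate 2, 3 or 6 or APOE33 replicate 1, 2 or 3 (the adjusted p then lay between 0.0651 and 0.115). The APOE44 call needed WT replicates 2, 3 and 6 and APOE44 replicates 1 and 3 (without 1 of them, the adjusted p lay between 0.0525 and 0.0947). APOE44 microglia also had Lcn2 higher (2.03, SE 0.61, adjusted p = 0.0112), which stood at 1.24 (adjusted p = 0.0562) without APOE44 replicate 3. With no low count filter the Ggta1 calls were lost too (adjusted p = 0.0858 in APOE33 and 0.0596 in APOE44). Cp was higher as well in APOE44 (0.90, SE 0.32, adjusted p = 0.031), but lost its call with no low count filter (adjusted p = 0.0582) and without WT replicate 1, 4 or 5 or APOE44 replicate 3 or 6, and stood at 0.42 (adjusted p = 0.318) without the 3 libraries high in neuron markers. In APOE44, 22.3% of genes were higher.

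The difference between the cell types in the KO response was tested in the 32 libraries of batch 1. S1pr3 was the 1 gene of the 10 that passed, beside 12.7% of 21647 genes (6.18% upward, 6.55% downward), with a microglia minus astrocyte difference of 2.00 (SE 0.67, adjusted p = 0.0486). The call held in only 5 of the 20 fits that left out 1 library, those without KO replicate 2 or APOE33 replicate 3 of the astrocytes or without KO replicate 2 or 3 or APOE33 replicate 6 of the microglia. Over the 20 fits the value ran from 1.39 to 2.93. The call was also lost with the replicate block (2.10, adjusted p = 0.155) and with no low count filter (1.99, adjusted p = 0.1025). Lcn2 (-1.31, SE 0.89, adjusted p = 0.378) and Cp (-0.13, SE 0.47, adjusted p = 0.928) did not pass, so the KO effects on them were not shown to differ between the cell types. Aspg, which entered this fit through its astrocyte counts, stood at -1.694 with an SE of 1.415, and the test can say little about it. For APOE44 against APOE33, edgeR and DESeq2 each called 0 of the 10; edgeR called 0.296% of all genes tested (0.152% upward and 0.143% downward). An unadjusted p under 0.05 was found for 3 of the 10, beside 11.4% of all genes.

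Within the astrocyte groups the genes did not move as 1 block. Over the 22 astrocyte libraries, with each group's mean removed, Pearson's r of log2 CPM was 0.90 between Lcn2 and Vim, 0.84 between Osmr and Steap4, 0.81 between Osmr and S1pr3, 0.73 between Lcn2 and Osmr and 0.69 between Cp and Ggta1. Cp and Cd44 stood at -0.33, and Aspg at 0.07 with Lcn2 and 0.10 with Cp. These correlations are descriptions. Beyond the batch tag, the labels do not say which libraries shared a culture or a sequencing run. Lcn2 and Cp, both higher in KO astrocytes, stood at 0.47.

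**Figure D5:**
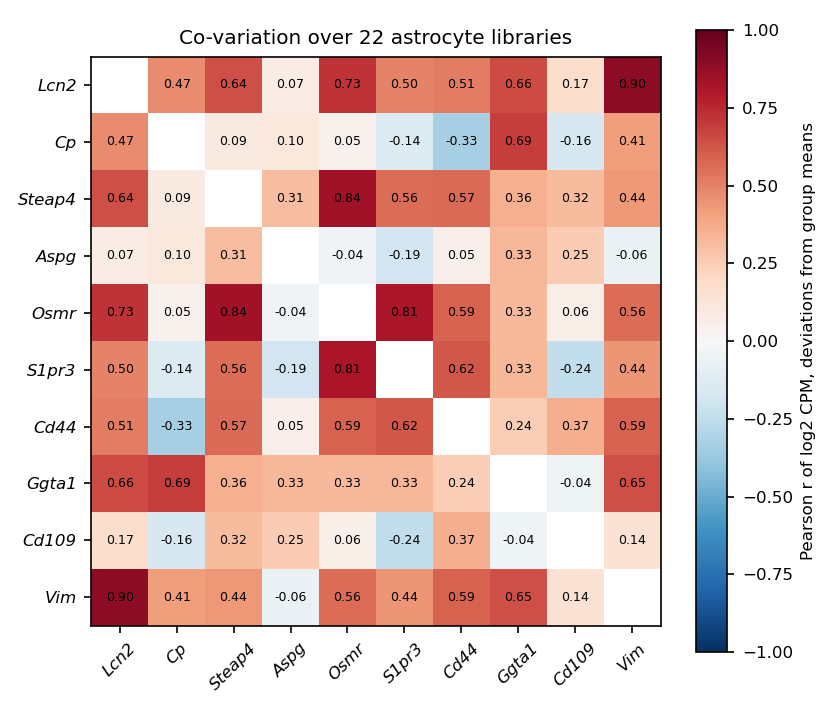
Pearson's r of log2 CPM between each pair of the 10 genes over the 22 astrocyte libraries, after removing group means. Lcn2 with Vim is highest at 0.90, Osmr with Steap4 and S1pr3 follows, and no pair with Aspg or Cd109 exceeds 0.37.

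Of 11571 genes, the patterns most like that of Lcn2 over the 22 astrocyte libraries were Ahnak2 (r = 0.94) and Rab27a (0.94). For Cp they were Arhgap18 (0.97) and Sntb2 (0.96), and for Aspg Il13ra1 (0.88) and Mettl9 (0.88). For Osmr they were Adamtsl1 and Fuca2 (0.89 and 0.88), for Ggta1 Bcl2l2 and Scel (0.91 and 0.89), for S1pr3 Tmem252 and Pgm5 (0.90 and 0.87). For Vim they were Grina and Arl8a (0.88 each), for Cd109 Ralgps1 and Tjp1 (0.83 and 0.82), for Cd44 Serping1 and Tgm2 (0.82 and 0.75), and for Steap4 Fbln1 and Scd1 (0.70 each). These r values include the differences between genotypes and batches. With group means removed they were 0.41 and 0.46 for the 2 genes of Aspg, 0.66 and 0.54 for those of Steap4 and 0.67 to 0.95 for the other 16.

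Among other reactive genes in KO against APOE33 astrocytes, 1 of 5 further pan-reactive genes rose, the protease inhibitor Timp1 (5.96 ± 2.19 against 2.30 ± 1.18 CPM; 1.30, SE 0.32, adjusted p = 0.0129), and the filament gene Gfap stood at -0.44 (SE 0.16, adjusted p = 0.0773). Against APOE44 astrocytes Gfap fell by 0.49 (SE 0.16, adjusted p = 0.0372). Serpina3n, another of the 5, went the other way without passing. It stood at 1.22 against APOE33 (SE 0.45, adjusted p = 0.0768) and at 1.26 against APOE44 (SE 0.44, adjusted p = 0.0550). The median of the 5 genes against APOE33 was 0.39, beside 0.003 for all genes. In that comparison 8.37% of all genes were higher and 8.83% were lower, the shares to set beside each astrocyte list here. Of 11 neuroinflammatory genes none rose and 1 fell, Fkbp5 (-0.27, adjusted p = 0.0105), with a list median of -0.09. Of 11 injury genes 2 rose and 1 fell: the cytokine Clcf1 (0.56, adjusted p = 0.0268), B3gnt5 (0.28, adjusted p = 0.0276) and the membrane protein Emp1 (-1.15, adjusted p = 0.0267), with a list median of -0.11. Of 22 cytokine signalling genes 2 rose, Jak1 and Lif, and 1 fell, the shared receptor gp130, Il6st (-0.29, adjusted p = 0.0321), with a list median of 0.02. Of 22 ligands and partners of the members 3 rose and 2 fell, with a list median of 0.21. Among them the CD44 ligand Spp1 stood at 48.4 ± 12.5 against 19.3 ± 6.05 CPM (1.34, SE 0.28, adjusted p = 0.00637) and the S1P receptor S1pr1 at 35.9 ± 4.69 against 61.8 ± 14.2 CPM (-0.79, SE 0.16, adjusted p = 0.00554). In KO against APOE33 microglia, 11 of 22 cytokine signalling genes fell and none rose, among them Nfkbia (-0.52, adjusted p = 1.33e-05), Nfkb1 (-0.36, adjusted p = 4.57e-05) and Cebpd (-0.60, adjusted p = 0.000248). That list's median was -0.25, beside -0.02 for all genes, and 11.9% of all genes fell. Against WT microglia, of the other batch, 9 of the 22 rose in KO and 1 fell, with a median of 0.13. There 20.9% of all genes rose and 21.5% fell. In APOE33 against WT microglia 17 rose and 0 fell, beside 22.2% and 22.6% of all genes.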

How the data were processed

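RNA-seq libraries of 22 astrocyte and 22 microglia samples were analysed from 1 table of raw counts per gene, deposited by the authors with no normalization. Per the submitters' processing notes, the tools included STAR 2.5.3a, featureCounts and edgeR 3.26.8; the notes also list DESeq2. The only build they name is the human hg38, although the gene identifiers are mouse ones, and no source used here gives the mouse build or annotation. Per the labels' protocols, an RNeasy kit gave the RNA, NEBNext Ultra the libraries, and a HiSeq instrument paired reads. Of 54146 identifiers, 54079 matched GENCODE M21, which gave symbols and exon lengths. Among counts from 1 to 9, 62.4% to 78.7% were even in each library, so a count is not an independent molecule.

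Groups came from the sample titles. Tests used edgeR 4.0.16 in R 4.3.3 over all genes that passed filterByExpr: TMM scaling, robust quasi-likelihood F tests, sex as a covariate (within cell type in joint fits), and Benjamini-Hochberg adjustment, with a call at an adjusted p under 0.05. Every adjusted p is from this edgeR test unless DESeq2 is named. A standard error is the log2 value divided by the square root of F, and CPM is a count divided by the library total. The KO, APOE44 and APOE33 libraries were fitted together (16 per cell type), WT comparisons used 22, and joint fits 32; the batch 1 cell type contrast averages the 3 genotypes and both sexes.

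The members, gene lists, tests and naming rule were chosen with earlier results of these data known. The 10 genes are named in every comparison. Of the other lists, up to 4 called genes with the smallest adjusted p are named per list. Gfap and Serpina3n are also named where they were not called. The like-patterned genes are the 2 with the highest correlation among those with a mean log2 CPM of at least 1 in astrocytes. Alternatives were DESeq2 1.42.0, its size factors within edgeR, no low count filter, no sex covariate, the replicate number as a block, and each library left out. No 2 libraries of a group were identical (102 pairs).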

Additional observations from a re-analysis of the deposited data

Results flagged for a closer look

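Among the 80 sets of libraries searched (10 genes, 8 groups), 6 held 1 library far from the others of its group, and chance alone flags about 1 in 20 sets. Lcn2 stood at 4.63 CPM in APOE33 microglia replicate 2 and at 13.4 CPM in APOE44 microglia replicate 3, each the highest of its group. In the same 2 libraries Cd109 stood at 3.48 CPM (APOE33 replicate 2) and Aspg at 0.0761 CPM, from 8 counts (APOE44 replicate 3). Both libraries are among the 3 microglia libraries with high neuron markers. Steap4 was 0.189 CPM in WT microglia replicate 6, from 18 counts, and Cd44 was 123.5 CPM in KO microglia replicate 1, the lowest of its group.

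The KO effect on S1pr3 in microglia minus that in astrocytes was 2.00 on the log2 scale (edgeR interaction test, SE 0.67, adjusted p = 0.0486). The call was lost in 15 of the 20 fits that left out 1 library, with the replicate block (adjusted p = 0.155) and with no low count filter (adjusted p = 0.1025). S1pr3 was read in microglia KO libraries from 30 to 155 counts, and the effect was 1.40 in microglia and -0.59 in astrocytes.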

How the results depend on the processing

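Of 767 recomputed log2 values of members under the planned settings other than leaving out a library, 750 kept direction and side of the threshold, 9 lost a call and 8 gained one. Of 2128 values with a library left out, 2066 kept both, and of 98 under settings added after seeing the data, 88 did. None reversed a called value; uncalled values changed sign in 91 of 2993 cases. The KO against APOE33 astrocyte count of members called was 3, and was 5 with no sex covariate, all of them higher. By DESeq2 this count was 6, with 5 higher and 1, S1pr3, lower. In microglia it was 1, and was 2 by DESeq2 and 3 without the 3 libraries with high neuron markers. The interaction count of the KO response was 1, and was 0 with no low count filter, 0 with the replicate block and 2 without those 3 libraries; the cause was not tested. Leaving out 1 library gave 2 to 4 members in KO against APOE33 astrocytes, 1 to 3 in the microglia, 1 to 3 in KO against APOE44 microglia, 3 to 6 in APOE44 against WT microglia and 0 to 1 in the interaction. The labels do not tie replicate numbers to animals, and same-numbered libraries of different genotypes had a median r from -0.23 to 0.16. For KO with APOE33 astrocytes 3 of 4 pairs were over 0.1, short of every pair. Same-numbered microglia and astrocyte libraries of 1 genotype had r over 0.1 in 20 of 22 pairs, among them all 6 WT pairs, and 9 of 22 astrocyte libraries were best matched by their own number. All 22 of these pairs carried the same sex label. The cell type and interaction tests took these libraries as unpaired, except where the block is named. The block changed no member's call between the cell types. With the replicate block, Lcn2 in KO against APOE33 astrocytes lost its call (adjusted p = 0.0922), as did Ggta1 against APOE44 (adjusted p = 0.0517), Osmr against WT (adjusted p = 0.0613) and S1pr3 in the interaction (adjusted p = 0.155); it changed no other member's call. Against WT, calls were gained by S1pr3, Steap4 and Cd109 in KO astrocytes, Aspg in APOE44 and Vim in APOE33 astrocytes and Cp in APOE33 microglia without single libraries. The all-gene counts that moved over 1.5 times were 144 in APOE44 against APOE33 astrocytes (70 with the block, 319 by DESeq2) and 144 in microglia (51 with the block, 418 by DESeq2). That for KO against APOE33 astrocytes was 3522, and 1892 with the block, 1836 without KO replicate 1, 2347 without APOE33 replicate 3 and 2124 in males only. Leaving out 1 library gave 85 to 126 for APOE44 against APOE33 astrocytes and 81 to 191 for the microglia. The interaction for APOE44 held 64 genes, and 38 with the block, 381 by DESeq2 and 40 to 403 with a library left out. Low microglia levels of Aspg and Steap4, at 0 counts in some libraries, limit what can be seen for them.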
